A study of Bos taurus with 40 samples.

Results

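The transcriptomes of bovine cumulus cells and granulosa cells were compared within the cleavage group, that is, for follicles whose oocytes had stopped at the cleavage step. The comparison holds 8 of the 40 samples of the series, which include 32 RNA libraries. They are 4 cumulus libraries (5, 6, 7 and 8) and 4 granulosa libraries (B14, B23, D10 and D29), taken by cell type and fate as the labels and column names give them. The series followed follicles to relate RNA and DNA methylation to whether an oocyte reached the blastocyst stage. Granulosa cells were collected follicle by follicle, and cumulus cells from the cumulus-oocyte complexes that were matured in vitro. All 8 libraries carry the genotype label Diploid, no agent is named for any of them, and no label says how many cells went into a library or that the libraries came from separate animals. P-values therefore measure only the spread between these libraries, which may be technical. In bulk libraries, fewer cells of a type and less RNA per cell cannot be told apart.

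Granulosa cells line the antral follicle, divide and make oestradiol under follicle-stimulating hormone, and contact the basement membrane. Cumulus cells come from the same lineage but enclose the oocyte, exchange metabolites with it through gap junctions, and respond to factors it secretes. During maturation cumulus cells build a matrix rich in hyaluronan and move apart, the process called expansion.

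Cumulus libraries held 8693548 to 9592127 counts and granulosa libraries 14502038 to 17668550. The 2 cell types stand in separate deposited tables, and of the 2 only cumulus cells are described as matured in vitro, so cell type, table and maturation in vitro cannot be told apart here. Of the 16611 rows tested below, 14203 carry an Ensembl identifier with no name beside it. The defining markers FSHR, CYP19A1, FOXL2, AMH, HAS2, PTX3 and TNFAIP6 had no row under their symbols, so the cell type labels could not be checked against them. Of the marker lists for oocyte, granulosa, cumulus, theca, endothelium, blood and stroma, H1FOO, the oocyte linker histone, was the single marker with a row. It had 0 counts in all 4 cumulus libraries, which allows up to 0.313 to 0.345 counts per library at a scale of 1000000 (CPM of library totals) for a floor of 3 counts. It had 7, 4 and 8 counts in B14, D10 and D29 and 74 counts in B23 (5.1 CPM of the total), against 533 to 921 CPM in the 4 whole oocyte libraries of the series. B23 stood apart in 2 other measures. Of the 1024 chemosensory receptor rows, 13.3% had a count in B23, against 2.44% to 3.32% in the other 3 granulosa libraries and 1.27% to 3.12% in cumulus libraries. Detected rows (5 counts or more) numbered 22039 in B23, 18065 to 19008 in the other 3 granulosa libraries and 17022 to 17090 in cumulus libraries.

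The 2 cell types differed across much of the measured transcriptome. Of 16611 rows that passed the filter on low counts, 10307 (62%) were called at an edgeR adjusted p under 0.05. Higher in cumulus cells were 4856 rows (29.2%) and lower were 5451 (32.8%). With a log2 fold change of at least 1 as well, 3758 rows (22.6%) were higher and 4079 (24.6%) lower in cumulus cells. The 4 cumulus values lay wholly above or below the 4 granulosa values in 10012 rows (60.3%). Differences of 32-fold or more (log2 of 5) were called in 268 rows higher and 252 rows lower. The median log2 fold change of all tested rows was -0.07, so a group of genes is read below against that value. It moved to 0.05 when library totals alone set the scale.

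The groups also differed in how closely their libraries resembled each other. Across the tested rows, which are not independent replicates, Pearson's r of log2(CPM + 1) was 0.986 to 0.991 among the 6 pairs of cumulus libraries and 0.911 to 0.942 among the 6 pairs of granulosa libraries. It was 0.695 to 0.741 in the 16 pairs across cell types. CPM here and below are counts at a library size of 1000000, scaled by TMM, the trimmed mean of M-values. The SD of a row over 4 libraries had a median of 0.154 on that log2 scale in cumulus cells and 0.424 in granulosa cells, so for most rows the granulosa libraries set the error of a comparison.

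Genes higher in cumulus cells included a peptide receptor, a lipase inhibitor, an adaptor of insulin signalling and a cytokine. The 27 genes with the largest differences, here and below, were chosen from called rows whose groups did not overlap. A gap between their groups is therefore part of the choice, and 60.3% of all tested rows did not overlap. SSTR1, an inhibitory receptor for somatostatin, stood at 211, 222, 411 and 177 CPM in cumulus libraries 5, 6, 7 and 8 and at 3.83, 2.62, 0 and 0.185 CPM in granulosa libraries B14, B23, D10 and D29. Every cumulus value was high and every granulosa value was below 4 CPM. The log2 fold change was 7.26 (SE 0.93, edgeR adjusted p = 0.000106), and it was 8.13 without B14, which had the highest granulosa level. G0S2, an inhibitor of the lipase that breaks down stored triglyceride, stood at 201, 142, 218 and 242 CPM in the cumulus libraries, in the same order, and at 2.95, 2.69, 0.578 and 3.64 in the granulosa libraries. Its log2 fold change was 6.34 (SE 0.47, edgeR adjusted p = 3.95e-06). Insulin receptor substrates were listed after the first results had been seen. IRS2, an adaptor that carries signals from insulin and IGF1 receptors, was at 30.5 ± 1.68 CPM in cumulus and 8.12 ± 4.1 in granulosa cells (mean ± SD, n = 4, log2 1.91, edgeR adjusted p = 0.000724). Its relative IRS1 was at 93 ± 20.9 and 94.7 ± 19.1 CPM, with overlapping libraries and no call (edgeR adjusted p = 0.917). IL11, a cytokine of the interleukin-6 family, had 214 counts over the 4 cumulus libraries and 3 over the granulosa libraries, all 3 in B23. That is a ratio of 119 per scaled count, with a 95% counting interval of 40.3 to 583 (edgeR adjusted p = 0.000152). Without B23 the granulosa libraries held 0 counts, and IL11 was at least 30.9-fold higher in cumulus cells against a floor of 3 counts per library.

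Others encode proteins of adhesion, the cytoskeleton and transcription. LAMA5, the alpha-5 laminin chain of basement membranes, stood at 92.2, 96.6, 114 and 104 CPM in the cumulus libraries and 3.65, 5.68, 2.7 and 5.56 in the granulosa libraries (log2 4.53, SE 0.25, edgeR adjusted p = 9.35e-07). All 4 cumulus values were above 90 CPM and all 4 granulosa values below 6 CPM. FAM129B, a niban family protein, was at 155 ± 20.9 CPM against 4.64 ± 3.36 (log2 5.05). MTSS1L, a protein that binds actin and bends membranes, was at 17.4, 17.7, 17 and 17.8 CPM in cumulus cells, a narrow range, and at 0.295, 1.75, 0.129 and 0.247 CPM in granulosa cells. Its log2 fold change of 4.87 became 6.20 without B23. Among genes of transcription, MAFK, a small Maf partner of bZIP factors, was at 35.8 ± 3.68 against 1.62 ± 0.446 CPM (log2 4.46). The zinc finger genes ZNF865 and ZNF579 differed by log2 5.64 and 3.75.

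C10H15orf59, paired by the RefSeq table with INSYN1, a factor of inhibitory synapses, had the largest fitted difference of these 13 genes. It stood at 29.2, 26.4, 15.3 and 18.3 CPM in cumulus cells and 0, 0.364, 0 and 0.0617 CPM in granulosa cells, which held 6 counts in all (log2 7.69, SE 0.72, and 9.49 without B23). KIAA0754 was at 51.9 ± 5.06 against 0.476 ± 0.293 CPM (log2 6.76) and C25H7orf43 at 33.3 ± 3.21 against 1.87 ± 0.97 CPM (log2 4.14). PRR12, a proline-rich nuclear protein, differed by log2 3.69, or 4.30 without B14. The edgeR adjusted p of the 13 genes was 0.000191 or lower.

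**Figure D1:**
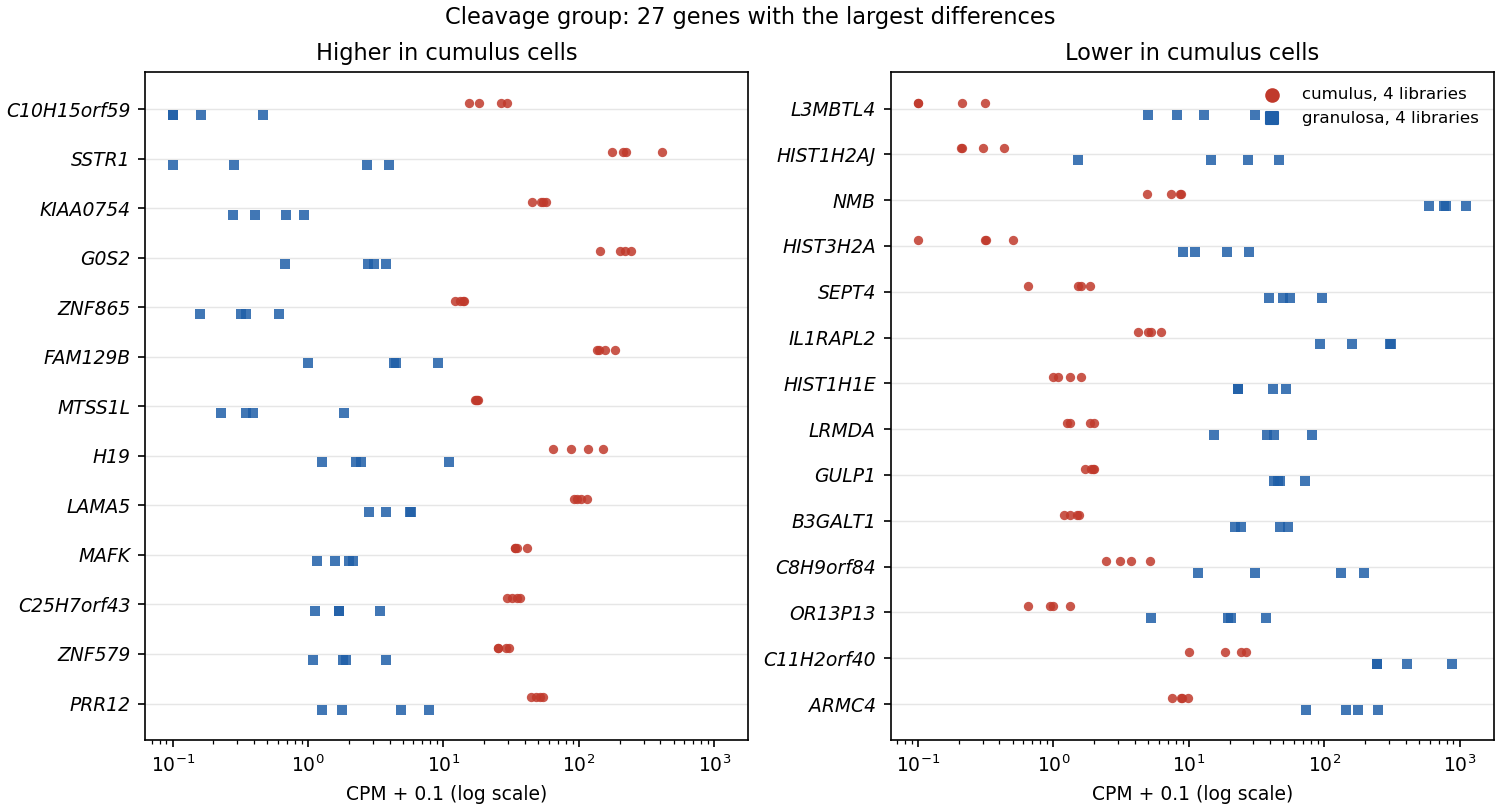
CPM + 0.1 on a log axis in each of the 4 cumulus (red circles) and 4 granulosa libraries (blue squares) for the genes with the largest called differences, 13 higher and 14 lower in cumulus cells. The genes were chosen for not overlapping, so the gap between the colours is part of the choice. SSTR1 lies at 177 to 411 CPM against 0 to 3.83, and NMB at 4.77 to 8.68 against 598 to 1120.5.

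Genes lower in cumulus cells included secreted peptides and an orphan receptor. NMB, neuromedin B, a peptide of the bombesin family, stood at 8.52, 8.68, 7.3 and 4.77 CPM in cumulus libraries 5, 6, 7 and 8 and at 598, 792, 1120.5 and 764 CPM in granulosa libraries B14, B23, D10 and D29. Its log2 fold change was -6.80 (SE 0.30, edgeR adjusted p = 3.75e-07). C11H2orf40, paired by the RefSeq table with ECRG4, the precursor of a secreted peptide, stood at 9.9, 24.2, 26.6 and 18.4 CPM in cumulus cells and 245, 412, 244 and 879.9 in granulosa cells (log2 -4.49, edgeR adjusted p = 4.71e-05). D29 was highest. IL1RAPL2, an orphan member of the interleukin-1 receptor family, stood at 6.18, 5.17, 4.87 and 4.11 CPM against 308, 309, 93.3 and 160.2 CPM, with B14 and B23 above D10 and D29 (log2 -5.42, edgeR adjusted p = 5.24e-06).

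An engulfment adaptor, enzymes and cytoskeletal genes were lower as well. GULP1, an adaptor in the engulfment of dying cells, was at 1.8 ± 0.121 CPM in cumulus and 51.8 ± 13.6 in granulosa cells (log2 -4.84). B3GALT1, a galactosyltransferase of the Golgi, was at 1.29 ± 0.157 against 36.8 ± 16.3 CPM (log2 -4.83), and LRMDA, a leucine-rich protein known from melanocyte differentiation, at 1.51 ± 0.367 against 44.3 ± 27.5 (log2 -4.87). SEPT4, a septin, stood at 1.49, 1.76, 1.42 and 0.555 CPM in the cumulus libraries and 38.7, 56.1, 49.3 and 96 in the granulosa libraries (log2 -5.51, edgeR adjusted p = 3.97e-06). ARMC4, paired with ODAD2, a docking protein of the outer dynein arms of motile cilia, was at 8.66 ± 0.982 against 162 ± 73.9 CPM (log2 -4.22). C8H9orf84 was at 3.51 ± 1.17 against 92.7 ± 86.8 CPM, with D10 and D29 far above B14 and B23 (log2 -4.72, or -4.06 without D10). L3MBTL4, a protein with MBT domains that bind methylated histones, had 3 counts in cumulus cells and 908 in granulosa cells, a ratio of 181 with a 95% counting interval of 61.8 to 879. Counting error does not cover the spread among its granulosa libraries, which ran from 4.88 to 30.7 CPM. The fitted log2 of -7.29 became -8.25 without cumulus library 5 and -6.57 without D29. The edgeR adjusted p of the 14 genes lowest in cumulus cells was 0.000806 or lower.

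OR13P13, an olfactory receptor row, was at 0.876 ± 0.273 CPM in cumulus and 20.5 ± 12.9 CPM in granulosa cells (log2 -4.53, edgeR adjusted p = 0.000118), and B23 had the lowest granulosa value, 5.17 CPM. It was 1 of only 2 chemosensory receptor rows that passed the filter. The other, OR10AL42, was at 14.5 ± 2.83 and 16.9 ± 4.21 CPM and was not called (edgeR adjusted p = 0.439). H1FOO was clearly above the cumulus floor in B23, while D10 had fewer counts per library total than that floor, and the part of oocyte RNA in the differences was not tested. The counts of calls were much the same without B23, at 4941 rows higher and 5478 lower of 16416 tested.

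Genes of the extracellular matrix went in both directions. TIMP1, an inhibitor of matrix metalloproteinases, stood at 1072, 997, 1437 and 1333 CPM in the cumulus libraries and 368, 7.42, 49.9 and 88.2 in the granulosa libraries. All cumulus values lay above all granulosa values, but the granulosa libraries spread from 7.42 to 368 CPM (log2 3.23, SE 0.90, edgeR adjusted p = 0.0101). The log2 fold change was 4.62 without B14, and the call ended with B14 and B23 alone as granulosa libraries (2.69) and with no filter on low counts (3.29). Of the collagens, 8 of 13 rows passed the filter, 0 were higher in cumulus cells and 2 (25%) were lower, against 32.8% lower of all tested rows, with a median log2 of -0.56. COL4A4, a chain of basement membrane collagen IV, was at 190.3 ± 11.1 CPM in cumulus and 802 ± 159 in granulosa cells (log2 -2.08, edgeR adjusted p = 7.54e-06), and COL21A1, a fibril-associated collagen, at 189 ± 33.2 and 343 ± 94 (log2 -0.85, edgeR adjusted p = 0.00632). The collagens that were not called had log2 values from -1.11 (COL24A1) to 2.23 (COL25A1). COL25A1 lay just past the threshold (edgeR adjusted p = 0.0503), at 27.8 ± 6.08 CPM in cumulus and 5.98 ± 9.36 in granulosa cells. Without B23, 1 collagen was called higher and 2 lower of 8. LAMA2, the alpha-2 laminin chain, had a log2 of -0.61 and was not called (edgeR adjusted p = 0.389), unlike LAMA5 above.

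The CCN proteins are secreted matricellular regulators, and CTGF and CYR61 are well-known targets of the Hippo pathway. Of 6 rows, 4 passed the filter, 1 (25%) was higher and 3 (75%) were lower in cumulus cells, against 29.2% and 32.8% of all tested rows. CTGF stood at 561, 510.4, 429.6 and 496 CPM in the cumulus libraries and 29.3, 12, 120.4 and 185 in the granulosa libraries (log2 2.53, SE 0.69, edgeR adjusted p = 0.00963). CYR61 stood at 18.4, 21, 24.3 and 20.8 CPM in the cumulus libraries and 69.9, 71.1, 139 and 497 in the granulosa libraries (log2 -3.20, SE 0.62, edgeR adjusted p = 0.00135). The 2 targets thus lay in opposite order between the cell types in the cleavage group, with no overlap for either. In the blastocyst group CTGF was called higher (log2 5.21), while CYR61 was not called (log2 -1.19, edgeR adjusted p = 0.239). Both depended in size on D29, the granulosa library highest for both. Without it the log2 was 3.21 for CTGF and -2.15 for CYR61. The CTGF call ended with no filter on low counts (log2 2.57). NOV (CCN3) was at 0.326 ± 0.207 against 7.59 ± 3.47 CPM (log2 -4.51) and WISP3 at 0.137 ± 0.106 against 2.02 ± 1.17 CPM (log2 -3.81), both lower in cumulus cells. NOV and WISP3 had 12 and 5 counts over the 4 cumulus libraries, so they passed the filter through granulosa cells alone. Both could only be called lower, and the 75% is a description.

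Other secreted matrix proteins were lower or not called. NELL1, a secreted protein with thrombospondin-like domains, was at 0.505 ± 0.137 CPM in cumulus and 8.75 ± 9.67 in granulosa cells, where B23 was highest at 23 CPM (log2 -4.08, or -2.98 without B23, edgeR adjusted p = 0.00177). ABI3BP, a matrix protein that binds collagen and integrins, was at 0.645 ± 0.268 against 3.34 ± 3.09 CPM (log2 -2.35, edgeR adjusted p = 0.0163). Its call ended without cumulus library 6 (-2.17) or 7 (-2.15). B23 was its highest granulosa library at 7.79 CPM, the granulosa mean was 1.86 ± 1.04 CPM without it (n = 3), and the row did not pass the filter, so was not tested, without B23, D10 or D29. ANOS1 had a log2 of -0.17 and was not called (edgeR adjusted p = 0.76). PCDH9, a protocadherin of cell contacts, was at 4.35 ± 1.06 and 12.8 ± 13.9 CPM with overlapping groups and was not called (log2 -1.55, edgeR adjusted p = 0.0838). It was called without B14 (-1.92), and its log2 was -0.52 without B23.

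Histone genes were the group with the largest share of calls in one direction among those with more than 10 tested rows. Core histones package DNA into nucleosomes. The messages of the replication-dependent genes lack a poly(A) tail in dividing cells, while variants such as H3F3B and H2AFZ are polyadenylated. Of 59 core histone rows 32 passed the filter. Of these, 25 (78.1%) were lower and 3 (9.38%) higher in cumulus cells, against 32.8% and 29.2% of all tested rows. Their median log2 was -2.29. Rows near 0 CPM in cumulus cells, such as HIST3H2A (0.21), HIST1H2BN (0.16) and H2BC13 (0.24), passed the filter through granulosa cells alone. They could only be called lower, so the share and the median are descriptions. Without B23 the counts were 22 lower and 3 higher of 30. H3F3B, which encodes the replacement histone H3.3, stood at 401, 404, 459 and 401 CPM in the cumulus libraries and 1253, 1977, 3423 and 1745 in the granulosa libraries (log2 -2.33, SE 0.29, edgeR adjusted p = 8.18e-05). Its sister gene H3F3A and the variant H2AFZ were lower as well, by log2 of -1.14 and -1.69. The replication-dependent H4C19 stood at 4.05, 4.29, 4.56 and 4.77 CPM in cumulus cells and 53.3, 106, 73.1 and 66.3 in granulosa cells (log2 -4.08, edgeR adjusted p = 1.24e-06). HIST3H2A, HIST1H2BN and HIST1H2AC were lower by log2 of -6.23, -5.37 and -2.35. HIST1H2AJ was at 0.187 ± 0.105 against 22.4 ± 19.2 CPM, with B23 highest at 46.4 (log2 -6.83, or -6.21 without B23).

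The 3 core histone rows that were higher in cumulus cells were H2AFX, a variant phosphorylated at DNA breaks (log2 1.74), HIST1H2BD (1.41) and H2BC4 (1.45). Linker histones, which bind DNA between nucleosomes, split too. H1F0 and H1FX, replication-independent variants, were higher, at 95.4 ± 8.26 against 24.9 ± 7.65 CPM (log2 1.94) and 79.8 ± 7.32 against 8.26 ± 2.5 CPM (log2 3.27). The replication-dependent HIST1H1C, HIST1H1D and HIST1H1E were lower, by log2 of -4.05, -4.16 and -4.92. The remaining tested row, HIST1H1B, had 0 counts in all cumulus libraries and 4.18 CPM in granulosa cells, at least 13-fold lower against a floor of 3 counts per library (edgeR adjusted p = 0.000205). With that row at its bound, the median of the 6 linker rows was -3.87. HIST1H1B passed the filter through granulosa cells alone, so it could only be called lower. Many histone genes are near-identical copies, so reads may be split between rows by the authors' counting, and single rows are uncertain.

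**Figure D2:**
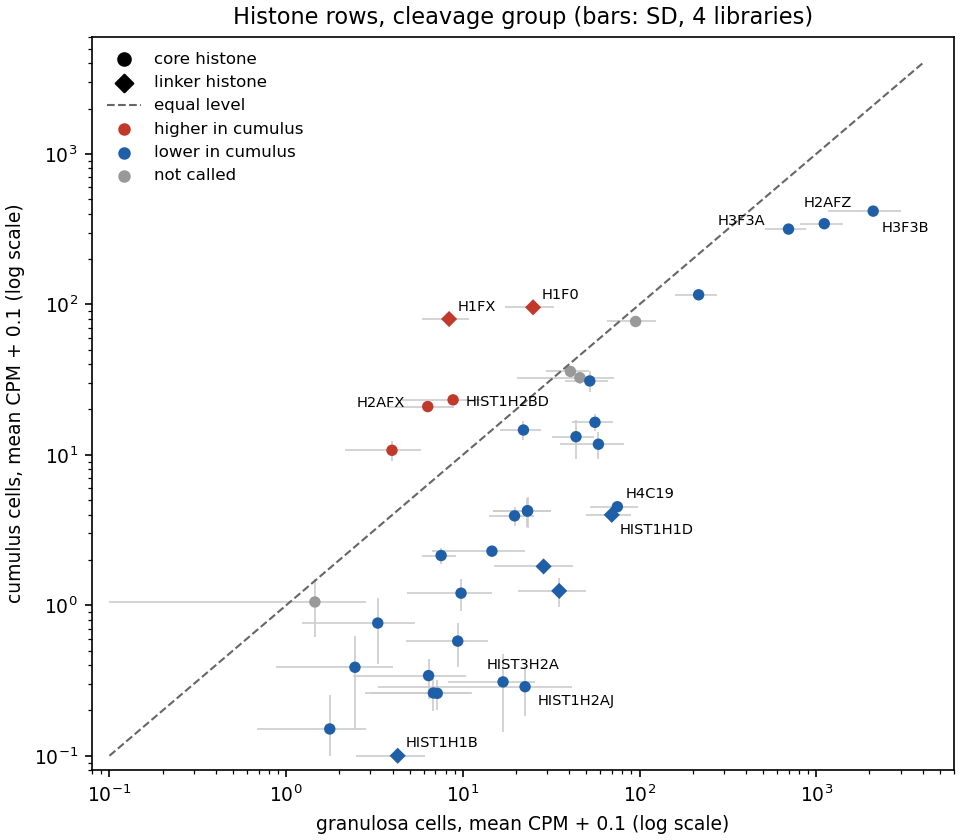
Mean CPM + 0.1 in cumulus cells (vertical, log axis) against granulosa cells (horizontal, log axis) for the 32 core and 6 linker histone rows that passed the filter, with SD over 4 libraries. Red and blue mark rows called higher and lower in cumulus cells, and most blue points lie well below the dashed line of equal level, while H1F0, H1FX and H2AFX lie above it.

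Genes that charge transfer RNAs with amino acids leaned the other way. All 18 aminoacyl-tRNA synthetase rows passed the filter. Of these, 12 (66.7%) were higher and 1 (5.56%) lower in cumulus cells, against 29.2% and 32.8% of all tested rows. Their median log2 was 0.78. Without B23 the counts were 11 and 1. YARS, for tyrosine, stood at 108, 109, 87.1 and 130.4 CPM in the cumulus libraries and 30.8, 16.7, 29.4 and 30.004 in the granulosa libraries (log2 2.02, SE 0.22, edgeR adjusted p = 3.63e-05). CARS, for cysteine, was at 59.1 ± 14.4 against 14.2 ± 5.37 CPM (log2 2.05), AARS, for alanine, at 183 ± 34.7 against 77.8 ± 10.9 (log2 1.23), and HARS, for histidine, at 87.1 ± 8.5 against 44.1 ± 4.05 (log2 0.98). The groups did not overlap for any of these 4 enzymes. RARS, for arginine, was the one that was lower (log2 -0.98, edgeR adjusted p = 0.00182). KARS, for lysine, stood at 267, 233, 254 and 260.1 CPM and 224, 223, 353 and 181 CPM, with overlapping groups and no call (edgeR adjusted p = 0.853). DARS, LARS, IARS and NARS were not called either, with log2 values from -0.21 to 0.42.

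Septins, GTP-binding proteins that form filaments at the cell cortex, were mostly higher in cumulus cells. Of 13 rows 11 passed the filter, 7 (63.6%) were higher and 2 (18.2%) lower, against 29.2% and 32.8% of all tested rows. The median log2 of the septins was 1.16, and their counts were the same without B23. SEPT9 was at 123 ± 19.8 CPM in cumulus and 23.8 ± 7.24 in granulosa cells (log2 2.37, edgeR adjusted p = 2.3e-05), and SEPT8 at 49.8 ± 1.88 against 19.4 ± 3.46 (log2 1.36). SEPT5, SEPT6, SEPT1, SEPT11 and SEPT2 were higher by log2 of 2.55, 1.91, 1.79, 1.16 and 0.94. SEPT7, the subunit shared by most septin filaments, went the other way and stood at 102, 108, 121 and 103 CPM in the cumulus libraries and 270.4, 315, 362 and 245 in the granulosa libraries (log2 -1.46, edgeR adjusted p = 3.36e-05). Together with SEPT4 above it was one of the 2 septins that were lower.

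**Figure D3:**
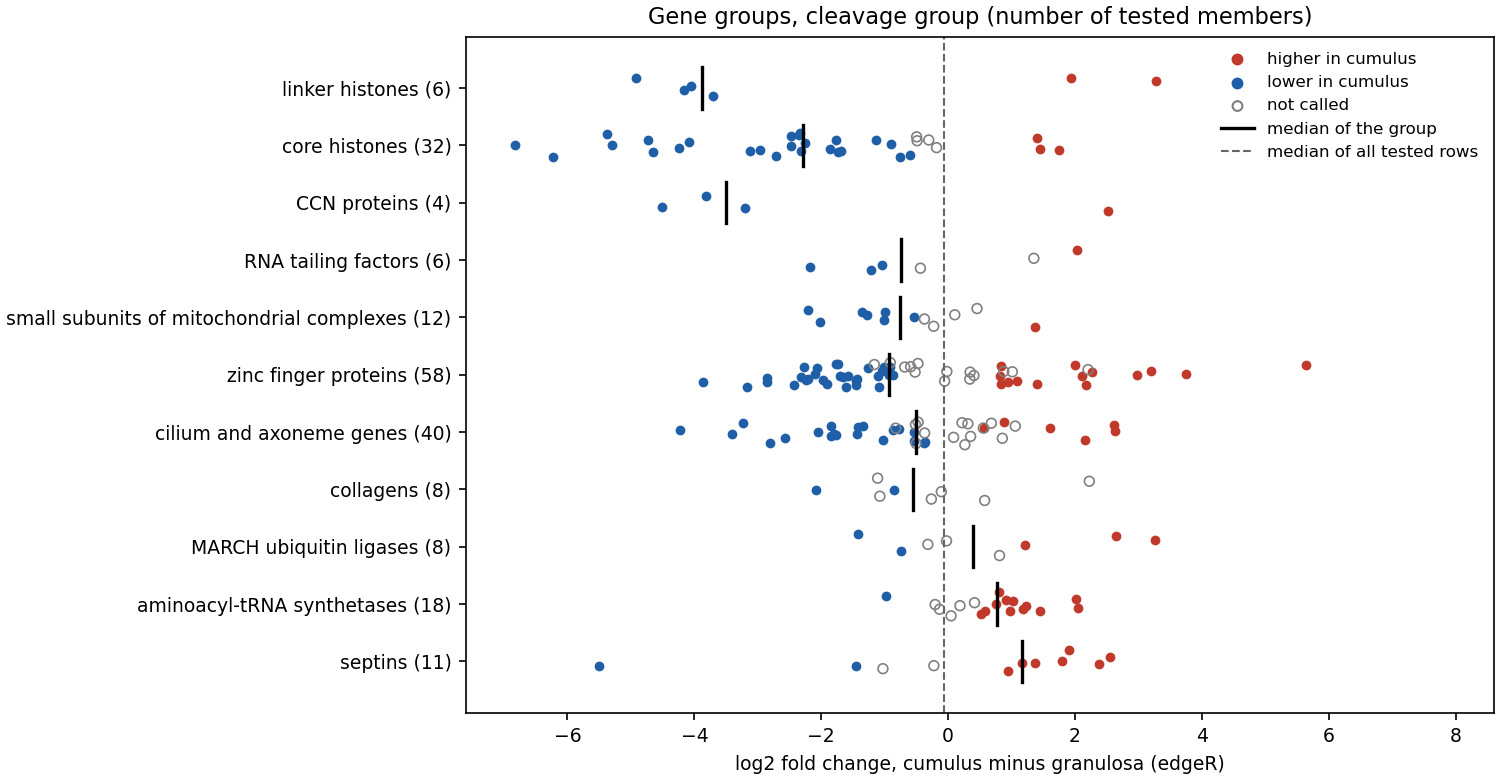
Log2 fold change (cumulus minus granulosa) of each tested member of 11 gene groups, with the group median as a black bar and the median of all tested rows, -0.07, as a dashed line. Filled points were called, red higher and blue lower in cumulus cells. HIST1H1B is drawn at its bound. Core histones lie mostly to the left and synthetases and septins mostly to the right, and most groups hold members on both sides.

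Genes that regulate RNA held members on both sides. Among enzymes that add nucleotides to RNA tails, 6 of 7 rows passed the filter, 1 (16.7%) was higher and 3 (50%) were lower, against 29.2% and 32.8% of all tested rows. PAPD7, a noncanonical poly(A) polymerase, was at 53.4 ± 1.41 CPM in cumulus and 13 ± 5.58 in granulosa cells (log2 2.03). PAPD4, paired with TENT2, another such polymerase, stood at 28, 26.5, 28.7 and 25.2 CPM against 113, 93.5, 171 and 110.1 CPM (log2 -2.17, edgeR adjusted p = 1.24e-05). PAPD5 and the uridylyltransferase ZCCHC11 were lower by log2 of -1.21 and -1.04. Factors that silence retroelements split as well. KIAA1551 (RESF1) was at 856 ± 136 against 305 ± 50.9 CPM (log2 1.49) and FAM208B was higher by log2 0.82, whereas FAM208A (TASOR), a subunit of the HUSH silencing complex, was lower at 109 ± 5.97 against 212 ± 15.9 CPM (log2 -0.95, edgeR adjusted p = 9.61e-05).

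Of the long noncoding RNAs, 6 of 7 rows passed the filter, 2 (33.3%) were higher and 3 (50%) lower in cumulus cells, against 29.2% and 32.8% of all tested rows. H19, a maternally expressed imprinted RNA, stood at 64.6, 117, 150.03 and 86.6 CPM in the cumulus libraries and 10.8, 1.16, 2.38 and 2.16 in the granulosa libraries. B14 was the highest granulosa library (log2 4.64, SE 0.66, edgeR adjusted p = 0.000191, log2 5.75 without B14). MEG3, another maternally expressed imprinted RNA, was at 6.95 ± 3.07 against 0.713 ± 1.15 CPM (log2 3.25, edgeR adjusted p = 0.0300). This call ended without cumulus library 5 (3.29), 7 (3.22) or 8 (3.05), without B23 (3.06), with the DESeq2 Wald test (3.35) and with no filter on low counts (3.32), and the log2 was 5.55 without B14. In the blastocyst group MEG3 was not called (log2 0.012, edgeR adjusted p = 0.989), whereas H19 was (log2 6.76). XIST, the RNA that coats the inactive X chromosome in female cells, stood at 371, 453, 385 and 335 CPM in cumulus cells and 1289, 1154, 1261 and 1219.5 in granulosa cells, 4 close values in each group (log2 -1.67, SE 0.15, edgeR adjusted p = 1.05e-05). SNHG3, a small nucleolar RNA host, and TUG1 were lower by log2 of -1.49 and -0.94. DANCR had a log2 of 0.39 and was not called (edgeR adjusted p = 0.447).

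Zinc finger genes, most of which encode DNA-binding proteins, held 58 tested rows out of 63. Of these, 30 (51.7%) were lower and 14 (24.1%) higher in cumulus cells, against 32.8% and 29.2% of all tested rows. Their median log2 was -0.93. Without B23 the counts were 32 and 14. ZNF782 was at 5.57 ± 1.01 CPM in cumulus and 40.4 ± 8.37 in granulosa cells (log2 -2.86), and ZNF280D at 22.5 ± 2.27 against 76.4 ± 10.2 (log2 -1.77). ZNF664 stood at 156, 168, 176 and 162 CPM in the cumulus libraries and 45.1, 32.5, 45 and 43.3 in the granulosa libraries (log2 1.99, edgeR adjusted p = 3.7e-06), higher in cumulus cells like ZNF865 and ZNF579 above.

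Genes of cilia and of mitochondria were listed after the first results had been seen, from rows that passed the filter, so their counts are descriptions. Of 40 cilium and axoneme genes, 20 (50%) were lower and 6 (15%) higher in cumulus cells (median log2 -0.51). Of all tested rows, 32.8% were lower and 29.2% higher, which holds for both lists here. CFAP47, a protein of the axoneme of motile cilia, was at 4.8 ± 1.19 CPM in cumulus and 45.3 ± 13.4 in granulosa cells (log2 -3.24). NEK10, a kinase of motile cilia, was at 3.53 ± 1.17 against 24.8 ± 1.55 (log2 -2.81), and DYNC2H1, the motor heavy chain of retrograde transport in all cilia, at 21.8 ± 3.48 against 78.5 ± 12.8 (log2 -1.85). TCTE3, a dynein light chain, went the other way and stood at 282, 225, 253 and 144 CPM against 56, 15.7, 29.4 and 44.5 CPM (log2 2.63, edgeR adjusted p = 0.000205). Of 12 genes for small subunits and assembly factors of mitochondrial complexes, 7 (58.3%) were lower and 1 (8.33%) higher (median log2 -0.76), or 6 and 1 without B23. ATP5MD, a small subunit of ATP synthase, stood at 92.2, 90.3, 89.6 and 83 CPM in cumulus libraries and 403, 412, 457 and 375 in granulosa libraries (log2 -2.21, SE 0.13, edgeR adjusted p = 1.05e-06). ATP5MPL, another small subunit of that enzyme, was lower by log2 -1.28, ATP5S, an assembly factor, by -2.01, CHCHD8, an assembly factor of cytochrome c oxidase, by -1.36, and SMIM37, a mitochondrial micropeptide, by -0.99. SURF1, which helps assemble cytochrome c oxidase, was higher by log2 1.37.

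Of the ubiquitin ligases of the MARCH family, 3 (37.5%) were higher and 2 (25%) lower of 8 tested rows, out of 11, near the 29.2% and 32.8% of all tested rows. MARCH10 stood at 63, 67.4, 55.9 and 47.3 CPM in the cumulus libraries and 3.83, 9.17, 6.17 and 5.19 in the granulosa libraries (log2 3.26, edgeR adjusted p = 7.95e-06), and MARCH9 was at 22.9 ± 0.839 against 3.64 ± 1.24 (log2 2.65). MARCH7 and MARCH6, a ligase of the endoplasmic reticulum, were lower by log2 of -1.43 and -0.74. Among 9 tested solute carriers, SLC5A3, the sodium-coupled inositol transporter, was at 138 ± 24.9 against 58.7 ± 28.7 CPM (log2 1.23, edgeR adjusted p = 0.00881), PQLC1 was higher by log2 2.48, and 0 were lower (2 higher of 9, or 3 higher and 2 lower without B23). SELENOW, a small selenoprotein, stood at 48.6, 38.5, 47.9 and 46.3 CPM against 178, 59.6, 148 and 163 CPM, lower in cumulus cells (log2 -1.60, edgeR adjusted p = 0.00107). SEPHS2, which makes the selenium donor for selenocysteine, and SELENOH were called higher by small amounts (log2 0.47 and 0.51, edgeR adjusted p = 0.0445 and 0.0454). The SEPHS2 call ended without cumulus library 5, 6 or 7, B14 or D29 (log2 0.31 to 0.50), and the SELENOH call without any library but B14 (log2 0.37 to 0.58).

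Families defined by name alone are given beside the 29.2% higher and 32.8% lower of all tested rows. Of 15 tested TMEM rows, 7 (46.7%) were higher and 3 (20%) lower, among them TMEM8A, TMEM203 and TMEM189 (PEDS1, a plasmalogen desaturase) higher by log2 of 2.23, 2.33 and 2.29, and TMEM269 lower by -1.89. TMEM246 was not called (log2 -0.12, edgeR adjusted p = 0.509). Of 46 tested FAM rows, 11 (23.9%) were higher and 19 (41.3%) lower (median log2 -0.15). FAM155A, paired with NALF1, a subunit of the sodium leak channel, was at 8.21 ± 1.76 CPM against 122 ± 46.1 (log2 -3.90), and FAM45A and FAM129A were lower by log2 of -1.58 and -0.75. FAM71F2 was higher by log2 1.99. Of 58 tested open reading frame rows, 11 (19%) were higher and 26 (44.8%) lower (median log2 -0.54), with C8H9orf3 at 32.9 ± 4.04 against 217 ± 72.6 CPM (log2 -2.72) and C23H6orf201 lower by log2 -1.57. GPRASP2, a sorting protein for G protein-coupled receptors, was slightly lower (log2 -0.48, edgeR adjusted p = 0.0113), a call that ended without cumulus library 5 (-0.42) or 7 (-0.42). Of 4 tested transfer RNA loci, TRNAC-GCA alone was called (log2 1.38, edgeR adjusted p = 0.0303), and the call ended without cumulus library 5 (1.40), 6 (1.33) or 8 (1.39) or without B23 (1.31).

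The libraries also differed in composition. The 10 rows with most counts took 9.46 ± 0.43% of cumulus counts and 12.3 ± 1.42% of granulosa counts (SD, n = 4, exact two-sided permutation p = 0.0286, the smallest that 4 against 4 allows). RN18S1, the 18S ribosomal RNA, stood at 1012, 1259, 531 and 3428 CPM in the cumulus libraries and 16097, 9260.01, 7848 and 2615 in the granulosa libraries, so cumulus library 8 lay above D29 and the groups overlapped. Its edgeR log2 was -2.52 (adjusted p = 0.00681), or -3.23 without cumulus library 8, while the exact two-sided permutation p of the level was 0.0571. The call ended with D10 and D29 alone as granulosa libraries (log2 -1.76). Ensembl rows held 94.3 ± 0.156% of cumulus counts and 92.6 ± 0.411% of granulosa counts. Rows under symbols held 2.85 ± 0.151% and 3.98 ± 0.42%, and LOC rows 2.8 ± 0.0394% and 3.39 ± 0.0108% (n = 4, exact two-sided permutation p = 0.0286 for each, and 0.0286 adjusted over the classes). RN18S1 is itself one of the rows under symbols.

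Detected rows were fewer in cumulus cells at 17046 ± 31.4 against 19465 ± 1762 (SD, n = 4, exact two-sided permutation p = 0.0286). With every library thinned to the smallest total the means were 16978 and 18003 (exact two-sided permutation p = 0.143). With B23 left out as well, the difference was -270.9, an alternative added after the data had been seen.

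Rows without a name showed some of the most even differences. By smallest p, ENSBTAG00000016350 stood at 121, 109, 129.9 and 119 CPM in the cumulus libraries and 1.41, 1.24, 1.93 and 1.73 in the granulosa libraries (log2 6.23, SE 0.19, edgeR adjusted p = 1.73e-07), and ENSBTAG00000040334 was higher by log2 6.51. In the other direction ENSBTAG00000019866 stood at 8.94, 12.6, 12.1 and 9.44 CPM in the cumulus libraries and 613, 425, 618 and 527 in the granulosa libraries (log2 -5.66, edgeR adjusted p = 2.54e-07), and ENSBTAG00000002417 was lower by log2 -3.78. The files do not pair these identifiers with gene names. Rows carrying a symbol were 734 of the 16611 tested, with 197 higher and 278 lower.

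The same contrast was fitted separately in the 8 libraries of the blastocyst group, which share no library with the cleavage group. Their cell types stand in the same 2 tables, so cell type, table and maturation in vitro cannot be told apart in that group either. There 23.9% of 20963 tested rows were higher and 40.1% lower in cumulus cells. Of the 16315 rows tested in both groups, 30.7% were higher and 24.1% lower there. Of 10134 rows called in the cleavage group and tested in both, 87.1% had the same direction, 64.4% were called in the same direction and 85 rows (0.839%) were called in the opposite one. Rows higher in cumulus cells were called again in 80.7% of cases and rows lower in 49.7%. Granulosa libraries of the blastocyst group carry more background, with H1FOO at 5.83 to 34.2 CPM of the total and chemosensory rows with a count at 33.7% to 79%, and the part of this in the difference was not tested. Of the 27 named genes with the largest differences, 26 were tested there and all 26 were called in the same direction. Those genes were chosen for the size of their difference. Of the 105 named rows tested there, 20 lost the call and 7 turned. Rows that lost it included XIST (log2 -0.91, edgeR adjusted p = 0.213), COL4A4 (-0.69, 0.284), SEPT7 (-0.77, 0.148) and H3F3B (-1.64, 0.060). SSTR1 had a log2 of 5.21 in the blastocyst group, G0S2 7.04, KIAA0754 7.34, NMB -5.44 and SEPT4 -3.65. The counts of lists that follow are read against the shares of rows tested in both groups. Core histones were called lower in 11 (39.3%) and higher in 3 (10.7%) of 28 rows there. Synthetases were higher in 13 (72.2%) and lower in 0 of 18, septins higher in 6 (54.5%) and lower in 2 (18.2%) of 11, and cilium genes higher in 5 (12.5%) and lower in 20 (50%) of 40. Small subunits and assembly factors of mitochondrial complexes were higher in 1 (8.33%) and lower in 1 (8.33%) of 12. In the cleavage group 58.3% of them were lower.

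The difference of the contrast between the 2 groups was called by edgeR in 2244 of 21929 rows (10.2%) and in 9 of the 107 named rows. LRMDA, PCDH9, NELL1, ABI3BP and CFAP47 had lower log2 values in the blastocyst group, at -8.36, -5.85, -8.78, -6.18 and -4.90 there. C10H15orf59, MTSS1L, LAMA5 and MARCH10 were higher by more in the cleavage group, at log2 of 7.69, 4.87, 4.53 and 3.26 against 3.94, 2.11, 3.08 and 1.15. TIMP1 and CTGF were at 6.73 and 5.21 in the blastocyst group, with no called difference between the groups (edgeR adjusted p = 0.123 and 0.169). CYR61 was at -1.19 there and was not called (edgeR adjusted p = 0.239), again with no called difference between the groups (edgeR adjusted p = 0.274).

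**Figure D4:**
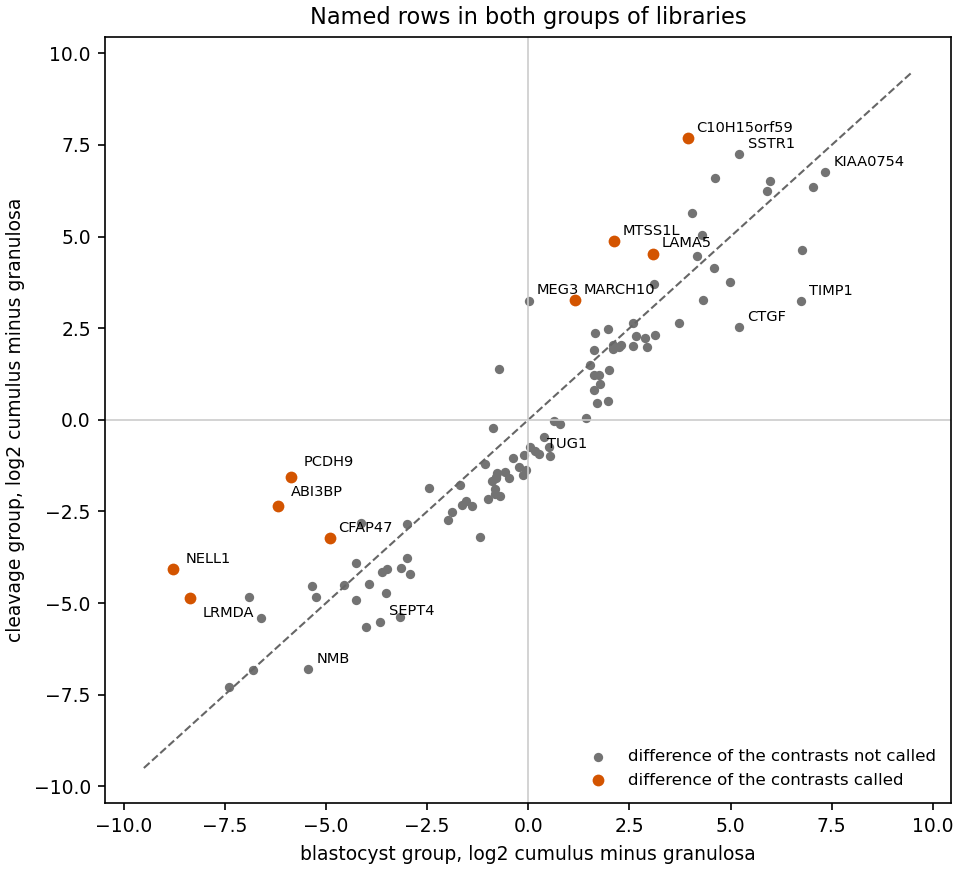
Log2 fold change (cumulus minus granulosa) in the cleavage group (vertical) against the blastocyst group (horizontal) for the 105 named rows tested in both, with a dashed line of equality. Orange marks the 9 rows whose difference between the groups was called, with NELL1, PCDH9 and ABI3BP farthest above the line, and 9 rows have opposite signs on the axes.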

How the data were processed

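RNA was measured in 4 cumulus and 4 granulosa libraries of the cleavage group. Per the labels' protocols, a SMART-Seq HT kit and a Nextera XT kit gave the libraries. The submitters' processing notes name Trim Galore, cutadapt, STAR and featureCounts for RNA. The sources used here give no version, setting, strand handling or genome build. Counts were deposited by the authors as whole numbers without normalization, for 59051 rows in each table, and entered the tests unchanged. Of the rows, 27607 carry Ensembl, 22227 NONCODE and 7848 LOC identifiers and 1369 a symbol. A RefSeq table of the ARS-UCD2.0 assembly named 1105 LOC rows, so 2474 rows carry a symbol.

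Libraries took their cell type and fate from the labels. The cumulus columns show the fate but not which title they belong to, so they are unnumbered members of their group, and the groups were compared unpaired. The filter on low counts was filterByExpr and the scaling was TMM. The quasi-likelihood F test of edgeR 4.0.16 (robust, in R 4.3.3) was run over all rows that passed, and a call is a Benjamini-Hochberg adjusted p under 0.05. CPM are TMM-scaled, and errors are SD over 4 libraries unless SE is written. Values of whole libraries were tested by exact permutation, two-sided, over 70 assignments. No 2 libraries agreed within counting noise (chi-square per degree of freedom 6.07 or more in every pair), so none was treated as a library deposited more than once. That does not show that they came from separate animals. Counting intervals (95%, exact conditional) and floors cover counting error only. DESeq2 1.42.0 was the other tool, and Python 3.11.15, pandas 2.3.3, scipy 1.17.1 and matplotlib 3.10.9 made tables and figures. The test was tried on simulated counts with known folds, in 3 draws with 50 changed rows per fold. It recovered 26% to 30% of 2-fold and 68% to 90% of 4-fold changes. All other simulated rows were left unchanged, whereas 62% of the real rows were called. The recovered shares therefore do not carry over to the real comparison. A row that was not called may still differ.

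The members, the gene lists and the tests were chosen with earlier results of these data known. Of 54 lists, 27 had a tested row, and 3 more (cilium genes, mitochondrial small subunits and insulin receptor substrates) were added after a first fit. Named genes are, in each direction, the 14 symbol rows of largest called log2 fold change with at least 10 CPM in the higher group and no overlap. Of each list the 4 called members of smallest p and the member of highest mean CPM were added, with the 3 rows under symbols of highest CPM in each group and 2 unnamed rows of smallest p in each direction. Other members are named where a count of a list is explained. Of the rows so chosen, 1 is not reported here. Left out were biopsies and polar bodies, and oocytes apart from H1FOO.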

Additional observations from a re-analysis of the deposited data

Results flagged for a closer look

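Of the 214 groups of 4 libraries among named rows, 13 had 1 library far from the other 3 by Dixon's test. Chance flags about 1 in 20 groups, which is 10.7 here, so the number is near what chance gives. Among granulosa libraries these were B14 for GULP1 (72.1 CPM), H19 (10.8) and WISP3 (3.77), each high. B23 was high for C10H15orf59 (0.364 CPM), MTSS1L (1.75) and IL11 (0.218), and low for YARS (16.7) and ZNF664 (32.5). D29 was high for CYR61 (497 CPM) and low for CHCHD8 (18.4) and ENSBTAG00000002417 (169). Cumulus library 7 was high for NELL1 (0.71 CPM) and H3F3B (459).

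For 9 named rows the contrast differed between the cleavage and blastocyst groups, tested as an interaction of edgeR over 21929 rows with 4 libraries in each of the 4 groups. As cleavage minus blastocyst log2, the differences were 3.91 for LRMDA (edgeR adjusted p = 0.011), 4.12 for C10H15orf59 (0.0126), 3.14 for MTSS1L (0.0234), 1.80 for LAMA5 (0.0121) and 5.15 for NELL1 (0.0197). They were 4.28 for ABI3BP (edgeR adjusted p = 0.0177), 2.50 for MARCH10 (0.0108), 4.75 for PCDH9 (0.011) and 2.07 for CFAP47 (0.038). PCDH9 was not called in the cleavage group alone.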

How the results depend on the processing

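Of the results tested under another setting, the count of called rows stayed within 9561 to 11918 of its 10307 when the scaling, the filter, the tool or a library was changed. It was 8068 and 11306 at adjusted p under 0.01 and 0.10. Tested against a log2 fold change of 1 (glmTreat), 5398 rows were called, 2641 higher and 2757 lower. In the blastocyst group 8414 rows were lower. The median log2 fold change of all tested rows became -0.029 under size factors of DESeq2, 0.046 under library totals (a shift of 0.11), -0.58 with no filter on low counts and -0.106 to -0.037 leaving out each library in turn. The sign of no list median named in the report turned with these scalings, whereas that of all rows did.

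The difference in detected rows, -2419, was -1025 with thinned libraries (exact permutation p = 0.143), -1286 at 1 count (0.543) and -270.9 thinned without B23 (0.286), so it no longer passed the threshold in these, and -2885.6 to -1560.9 leaving out each library. The difference in the share of the 10 rows with most counts was -0.86 percentage points for the first of them alone (exact permutation p = 0.0571), and -3.28 to -2.35 leaving out each library. The class shares leaving out each library differed by 1.54 to 1.88 points for Ensembl, -0.61 to -0.58 for LOC and -1.29 to -0.95 for symbol rows. With 1 library left out the exact p was 0.0571 for each of these measures, the smallest that 4 against 3 allows.

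Over all alternatives of the 107 named rows, 1739 values kept direction and side of the threshold, 59 lost the call, 5 gained one and 7 turned. The 7 turned in the blastocyst group, to log2 of 0.25 for TUG1, 0.16 for COL21A1, 0.035 for MARCH6, 0.38 for GPRASP2, 0.51 for FAM129A, -0.72 for TRNAC-GCA and 0.53 for SMIM37. The cause was not tested in any of these. No paired analysis was possible because the cumulus columns carry no title number and share none with the granulosa libraries. Totals of 8693548 counts or more leave rows of a few counts, such as L3MBTL4, IL11 and H1FOO, with wide counting intervals.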

Other observations

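Further members of the lists, chosen here after their values had been seen, included members of the same list on opposite sides. FAM155A was lower in cumulus cells, and its relative FAM155B was higher, at 8.44 ± 0.66 CPM against 0.794 ± 0.474 (log2 3.41, edgeR adjusted p = 0.00012). Among TMEM rows, grouped by name alone, TMEM154 was lower by log2 -5.46 and TMEM277 higher by 3.32. Among cilium genes, CASC1 was lower by log2 -3.41 (edgeR adjusted p = 3.84e-05), while CCDC114, a docking protein of outer dynein arms like ARMC4, was higher, at 9.69 ± 0.742 CPM against 1.58 ± 0.648 (log2 2.61, edgeR adjusted p = 0.000201). Among zinc finger genes, ZNF883 was lower by log2 -3.86 and ZNF213 higher by 3.20. GARS, the synthetase for glycine, was at 137 ± 42 CPM against 49.9 ± 1.92 (log2 1.45, edgeR adjusted p = 0.000244), and SARS, for serine, was higher by log2 1.02.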
